A study of Homo sapiens with 6 samples.

Results

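The deposited tables held 4 entries for a locus on human chromosome 17 at which microRNA (miRNA) hairpins are annotated on opposite strands: hsa-miR-423-5p and hsa-miR-423-3p on the plus strand, and hsa-miR-3184-5p and hsa-miR-3184-3p on the minus strand. They were taken by their exact names from 2588 mature miRNA entries, and all 4 were found in each of the 6 tables. The libraries were made from exosomes of HCT116, a long-established line of human colorectal carcinoma cells. In the siPRDX3 group (n = 3 libraries) the cells had received an siRNA against PRDX3, which encodes a mitochondrial peroxiredoxin, and in the siCTL group (n = 3) a control siRNA. In both groups the siRNA was delivered by microporation and left for 40 h, cells then spent 24 h in medium with serum freed of nanoparticles, and exosomes were collected with a commercial kit. All libraries thus share 1 cell line and a serum-containing collection medium, and a miRNA assay does not measure PRDX3 itself. The series' design text also names another siRNA and endothelial cells in its last sentence, against the titles and cell line of every sample, and the titles were followed.

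A miRNA hairpin is cut by Dicer into a duplex whose 5′ arm (5p) or 3′ arm (3p) is loaded onto an Argonaute protein, and the bases near the 5′ end of the loaded strand, the seed, pair with target mRNAs. miR-423 comes from a hairpin at the NSRP1 gene, which encodes a splicing regulator of nuclear speckles. Both of its arms circulate in blood, where miR-423-5p has been studied as a marker in heart failure and miR-423-3p has served as a reference for quantitative PCR. miR-3184 is the name given to the hairpin read from the other strand of the same bases.

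The mature sequences are shown because the entries overlap, and the division of reads between them is described below. Each runs 5′ to 3′ with the seed, bases 2 to 8, in capitals (RefSeq, GRCh38.p14).
hsa-miR-423-5p: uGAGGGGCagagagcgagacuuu
hsa-miR-3184-3p: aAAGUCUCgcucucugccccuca
hsa-miR-423-3p: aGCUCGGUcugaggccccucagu
hsa-miR-3184-5p: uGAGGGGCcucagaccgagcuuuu
The hairpins follow, with the mature arms in capitals.
MIR423: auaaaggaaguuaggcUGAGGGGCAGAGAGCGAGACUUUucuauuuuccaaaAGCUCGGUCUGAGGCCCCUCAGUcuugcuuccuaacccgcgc
MIR3184: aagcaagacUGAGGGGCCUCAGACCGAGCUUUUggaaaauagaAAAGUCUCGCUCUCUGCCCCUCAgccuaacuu

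miR-3184-3p is the exact reverse complement of miR-423-5p over all 23 bases, both at chr17:30117095-30117117. On the other side of the loop, miR-423-3p (chr17:30117131-30117153, plus strand) and miR-3184-5p (chr17:30117128-30117151, minus strand) share 21 bases. There miR-3184-5p reaches 3 bases further towards the loop, and miR-423-3p reaches 2 bases further out. miR-423-5p and miR-3184-5p come from opposite sides of the loop, yet their first 8 bases are identical, so that they carry the same seed. Of the 2281 deposited entries with a sequence in the RefSeq table, no other has this seed, and none besides miR-423-3p and miR-3184-3p has theirs. The MIR423 hairpin (chr17:30117079-30117172) lies within an untranslated exon of an NSRP1 transcript (chr17:30116992-30117332) in GENCODE v29 on GRCh38. The MIR3184 hairpin (chr17:30117086-30117160) lies within the span of an annotated antisense gene, AC104984.2 (chr17:30090366-30117497, minus strand).

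The deposited log2 values lay on whole multiples of 1 step in each library, which allowed read numbers to be recovered. These came to 230946, 96660 and 70678 miRNA reads in siPRDX3 1, 2 and 3, and to 40146, 80950 and 124735 in siCTL 1, 2 and 3. Earlier results of these data set siCTL 1 and siCTL 2 apart from the other 4 libraries: 30 and 23 of the 80 entries tested here had no read in them, against 1, 8 and 1 in siPRDX3 1, 2 and 3 and 0 in siCTL 3. miR-4451, the most abundant entry, took 11.8%, 47.7% and 39.95% of reads in siPRDX3 and 49.4%, 76.9% and 16.4% in siCTL. Of 8 epithelial and colon miRNAs, such as miR-200c-3p and miR-192-5p, 7 had reads in at least 1 library and miR-429 had none. Together they took 0.304%, 0.0114% and 0.286% of reads in siPRDX3 1, 2 and 3 and 0.00747%, 0.00494% and 1.16% in siCTL 1, 2 and 3. These are the markers of the labelled cell type, and they were scarce in siPRDX3 2, siCTL 1 and siCTL 2. Erythroid markers took 1.09% to 3.54% in siPRDX3 and 4.15% to 5.58% in siCTL, the hepatocyte marker miR-122 took 2.44% to 9.63% and 0.0593% to 5.35%, and leukocyte and platelet markers stayed at or below 0.406% and 0.0168%. The part of library composition in the values below was not tested.

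The 4 entries made up a sizeable part of the exosomal miRNA reads wherever they were well represented. Their summed share was 11.2%, 5.52% and 8.02% of miRNA reads in siPRDX3 1, 2 and 3, and 0.0797%, 1.69% and 11.9% in siCTL 1, 2 and 3. The siPRDX3 libraries thus lay within the span of the siCTL libraries, which ran from the lowest value of all to the highest. The sum was 32 reads in siCTL 1. With miR-4451 left out of the totals, the summed share was 12.7%, 10.6% and 13.4% in siPRDX3, and 0.158%, 7.32% and 14.2% in siCTL. On that basis 5 libraries lay between 7.32% and 14.2%, and siCTL 1 stood far below them.

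**Figure D1:**
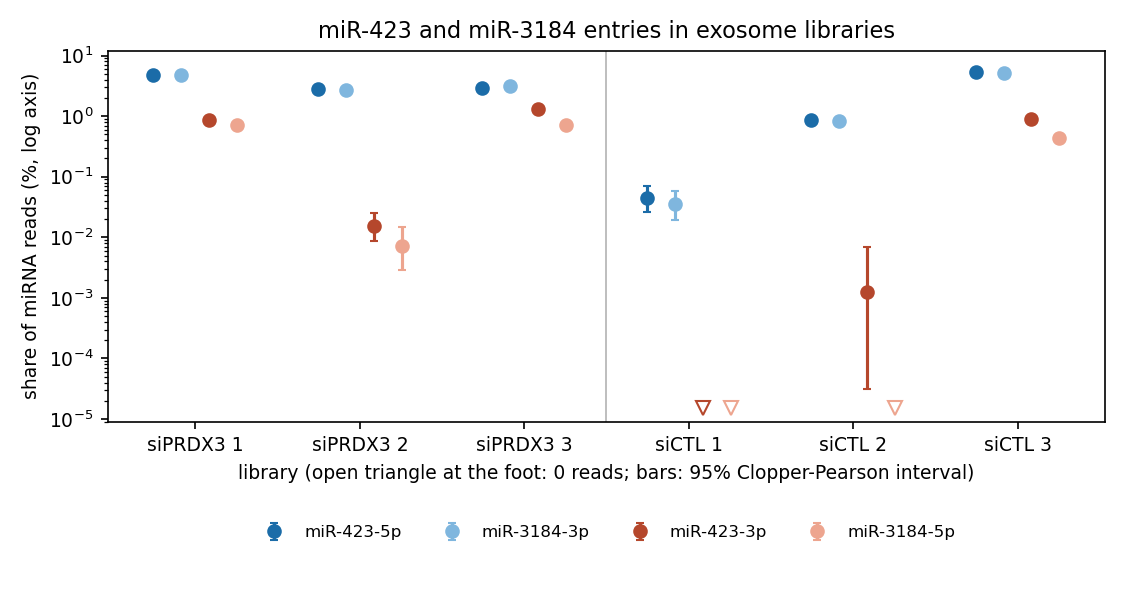
Share of miRNA reads (log axis, %) taken by each of the 4 entries in each library, siPRDX3 left and siCTL right, with 95% Clopper-Pearson intervals that cover counting error only; open triangles at the foot mark 0 reads. miR-423-5p and miR-3184-3p lie at nearly the same height in every library, while miR-423-3p and miR-3184-5p drop to 15 and 7 reads in siPRDX3 2 and to at most 1 read in siCTL 1 and siCTL 2.

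hsa-miR-423-5p, the more abundant arm of miR-423 in every library, had 11017, 2669 and 2055 reads in siPRDX3 1, 2 and 3, and 18, 701 and 6666 in siCTL 1, 2 and 3. As shares of miRNA reads these were 4.77%, 2.76% and 2.91% in siPRDX3 and 0.0448%, 0.866% and 5.34% in siCTL. It was the fifth, seventh and ninth most abundant entry of the siPRDX3 libraries, and ranked 32, 9 and 6 in siCTL 1, 2 and 3. siCTL 3 held the highest share and siCTL 1 the lowest, so the groups overlapped. The interval in siCTL 1, 0.0266% to 0.0709%, lies below the intervals of the other 5 libraries. Intervals cover counting error only, since amplified reads that carry no molecular identifier may copy the same molecule.

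hsa-miR-3184-3p, the reverse complement of miR-423-5p, followed it closely. It had 11202, 2647 and 2189 reads in siPRDX3 1, 2 and 3, and 14, 668 and 6501 in siCTL 1, 2 and 3. On the deposited log2 scale miR-423-5p averaged 14.32 ± 0.63 in siPRDX3 and 12.76 ± 3.55 in siCTL (SD, n = 3 each). miR-3184-3p averaged 14.35 ± 0.61 in siPRDX3 and 12.61 ± 3.72 in siCTL (SD, n = 3 each). The spread within siCTL was several times that within siPRDX3 for both entries.

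hsa-miR-423-3p, from the other arm of the plus-strand hairpin, was less abundant and far more uneven. It had 2024, 15 and 928 reads in siPRDX3 1, 2 and 3, and 0, 1 and 1103 in siCTL 1, 2 and 3. It took 0.876% and 1.31% of reads in siPRDX3 1 and 3 and 0.884% in siCTL 3, but 0.0155% in siPRDX3 2 and 0.00124% in siCTL 2. With the floor set at 3 reads, the 0 reads in siCTL 1 allow a share of up to 0.00747%. The libraries low in this arm were therefore found in both groups.

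hsa-miR-3184-5p, which shares its seed with miR-423-5p, was the least abundant of the 4. It had 1663, 7 and 496 reads in siPRDX3 1, 2 and 3, and 0, 0 and 539 in siCTL 1, 2 and 3. It was high in the same 3 libraries as miR-423-3p and scarce or absent in the other 3. With the same floor of 3 reads, the 0 reads in siCTL 2 allow a share of up to 0.00371%. Measured as the root-mean-square spread of the log2 share over the 6 libraries, miR-3184-5p and miR-423-3p stood at 4.33 and 4.28, with 5 and 6 of the 80 tested entries more uneven. miR-423-5p and miR-3184-3p stood at 2.37 and 2.50, below the median of 2.89.

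No member differed between siPRDX3 and siCTL past the threshold. The question of the series is which exosomal miRNAs differ after PRDX3 depletion, and each entry was tested with limma over all 80 entries that passed a filter on low values, among them all 4 members. Adjusted p-values (Benjamini-Hochberg) under 0.05 were found for 0% of the 80 entries, and unadjusted ones for 7.5%, which is 6 entries and 0 of the members. limma-voom on recovered reads with TMM factors likewise passed 0 entries, with 12 at an unadjusted p under 0.05. The log2 fold change of siPRDX3 over siCTL was 1.56 with SE 1.74 for miR-423-5p (95% interval −2.54 to 5.65, limma adjusted p = 0.590). For miR-3184-3p it was 1.75 with SE 1.81 (limma adjusted p = 0.590). It was 4.80 with SE 3.53 for miR-423-3p and 5.86 with SE 3.74 for miR-3184-5p (limma adjusted p = 0.546 for each). Fold changes are on the log2(value + 1) scale, and those of miR-423-3p and miR-3184-5p depend on the added 1, since these had libraries at 0. With the worth of 1 read in the shallowest library added instead, they were 2.99 for miR-423-3p and 2.95 for miR-3184-5p. Under library totals miR-423-5p stood at 2.51 and miR-3184-3p at 2.70, and under limma-voom at 2.62 and 2.80. Library totals also moved the median of all tested entries, to 2.57. All 4 lay above 0, as did 63.8% of the 80 tested entries, and the members' median of 3.28 compares with 1.72 over all tested, both from the deposited values. The 4 are overlapping pairs and do not count as separate observations. Their median depends on the added 1 through miR-423-3p. The median over all tested does too, and was 1.08 with the worth of 1 read in the shallowest library added. The groups did not overlap for 0 of the members, against 16.2% of the tested entries on the deposited values and 15% as shares of reads. Fewer vesicles that carry an entry and fewer copies in each vesicle cannot be told apart in such libraries.

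The sign of these fold changes depended on which siCTL libraries entered. Without siCTL 1 the log2 fold change was −0.42 for miR-423-5p and −0.33 for miR-3184-3p, and without siCTL 1 and siCTL 2 it was −1.38 and −1.31. Leaving out siCTL 1 alone turned the sign on the deposited scale and not under library totals, an alternative chosen after the data were seen, which gave 0.65 for miR-423-5p and 0.74 for miR-3184-3p. The fold changes of miR-423-3p and miR-3184-5p without both libraries were −2.47 and −2.19. With siCTL 3 as the lone control, whose spread is assumed to be that of the siPRDX3 libraries, 21.2% of the tested entries lay above 0. In contrast, without siCTL 3 the fold change was 8.44 for miR-423-3p (limma adjusted p = 0.0394) and 9.88 for miR-3184-5p (0.0233), both past the threshold, as were 25% of the 80 entries. The controls left, siCTL 1 and siCTL 2, held 0 and 1 reads of miR-423-3p and 0 and 0 of miR-3184-5p. Both values thus depend on the 1 added before the log2. The filter was that of all 6 libraries, which miR-3184-5p passed only with siCTL 3 counted. Without siCTL 3, miR-423-5p stood at 3.02 and miR-3184-3p at 3.27 (limma adjusted p = 0.200 and 0.193). The labels do not say whether the replicates are separate cultures, and p-values then reflect a spread that may be purely technical.

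**Figure D2:**
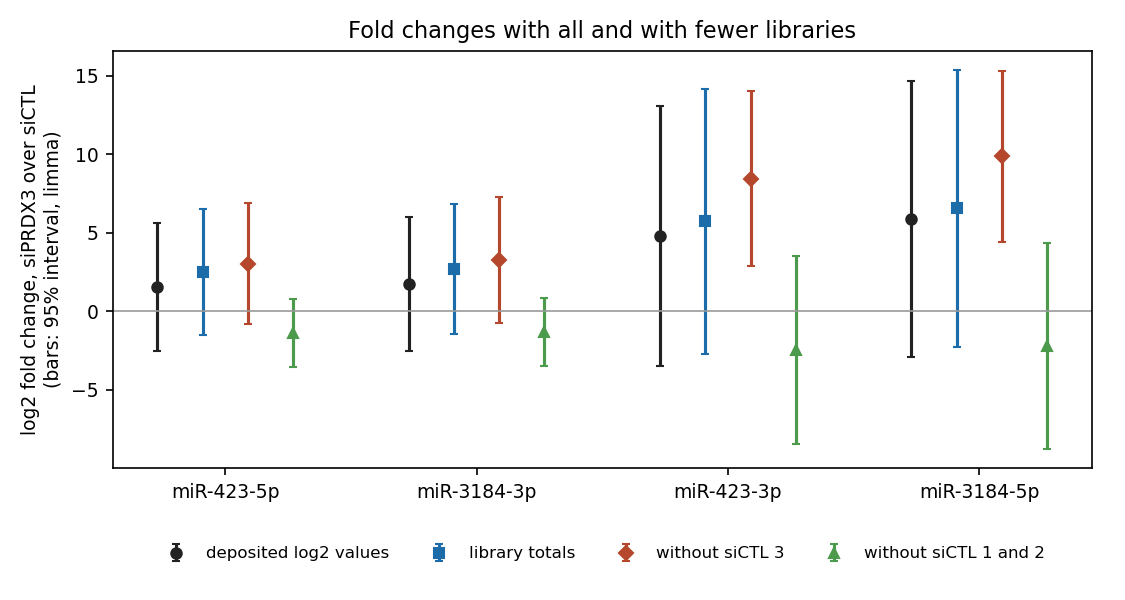
Log2 fold change of siPRDX3 over siCTL with its 95% interval from limma for the 4 entries, from the deposited values of all 6 libraries, from library totals, without siCTL 3, and without siCTL 1 and siCTL 2. Points lie above 0 with all libraries, and below 0 once siCTL 1 and siCTL 2 are left out. Intervals clear of 0 appear for miR-423-3p and miR-3184-5p without siCTL 3, where the controls left had at most 1 read of each.

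The balance of the arms, which does not depend on the scaling between libraries, varied more within the groups than between them. The ratio of miR-423-5p to miR-423-3p reads was 5.44 in siPRDX3 1, 178 in siPRDX3 2 and 2.21 in siPRDX3 3. In siCTL it was 701 to 1 read in siCTL 2 and 6.04 in siCTL 3, and the 18 reads against 0 in siCTL 1 put it at least 6-fold, with the floor set at 3 reads. Thus siPRDX3 1, siPRDX3 3 and siCTL 3 had ratios within the same order of magnitude, and siPRDX3 2 and siCTL 2 showed almost no 3p arm although their 5p arm was well covered. The log2 ratio, with 0.5 read added to each arm, averaged 3.67 ± 3.32 in siPRDX3 and 5.56 ± 3.15 in siCTL (SD, n = 3 each). The difference of −1.88 had an exact permutation p of 0.5, two-sided (adjusted p = 0.667 over 4 ratios), where 0.1 is the smallest p that 3 against 3 libraries allow.

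The minus-strand names gave the same picture with the arms exchanged. That is not a separate result, since the entries overlap and reads from the plus and the minus strand cannot be told apart. The ratio of miR-3184-3p to miR-3184-5p reads was 6.74, 378 and 4.41 in siPRDX3 1, 2 and 3, and 12.1 in siCTL 3. In siCTL 2 it was at least 223-fold and in siCTL 1 at least 4.67-fold, from 668 and 14 reads against 0. The log2 ratio averaged 4.45 ± 3.49 in siPRDX3 and 6.28 ± 3.61 in siCTL (SD, n = 3 each, difference −1.83, exact permutation p = 0.5, adjusted p = 0.667). The siCTL mean, SD and the difference are set largely by the 0.5 read added, because miR-3184-5p had 0 reads in siCTL 1 and siCTL 2. With 1 read added the difference was −1.21 for miR-3184 and −1.44 for miR-423, whose 3p arm had 0 and 1 reads in these libraries. Adding the overlapping entries, the miR-423-3p side made up 14.2%, 0.412% and 25.1% of the reads of the locus in siPRDX3 1, 2 and 3. It made up 0.0730% in siCTL 2 and 11.1% in siCTL 3. The interval for siPRDX3 2, 0.258% to 0.623%, is far below those of siPRDX3 1, 13.8% to 14.7%, and siPRDX3 3, 24.0% to 26.3%. In siCTL 1 this side had 0 of 32 reads. Its interval, 0% to 10.9%, overlaps that of siCTL 3, 10.6% to 11.6%, and the floor of 3 reads stands at 9.38%.

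Few other hairpins allowed the same comparison. Besides miR-423 and miR-3184, both arms were tested for miR-25, miR-486 and miR-92b. Over the 3 siPRDX3 libraries and siCTL 3, the log2 ratio of 5p to 3p reads spanned 6.28 for miR-423, 7.55 for miR-25, 2.65 for miR-92b and 0.77 for miR-486. In siPRDX3 2, where the 3p arm of miR-423 was nearly missing, the 3p arms of miR-25, miR-486 and miR-92b had 446, 76 and 79 reads. In siCTL 2 they had 0, 46 and 6 reads. None of these 3 hairpins had its 3p arm nearly missing in siPRDX3 2. miR-25-3p varied elsewhere, with 887 and 22 reads in siPRDX3 1 and 3, and 0 and 263 in siCTL 1 and 3. Over all 6 libraries the log2 ratio spanned 12.43 for miR-25, 7.72 for miR-423, 6.14 for miR-92b and 1.76 for miR-486. The first 3 of these spans depend on the fraction of a read added, since 1 arm had 0 or 1 reads in siCTL 2. An uneven balance of the arms was thus not particular to miR-423. This comparison was chosen after the values were seen and is a description.

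**Figure D3:**
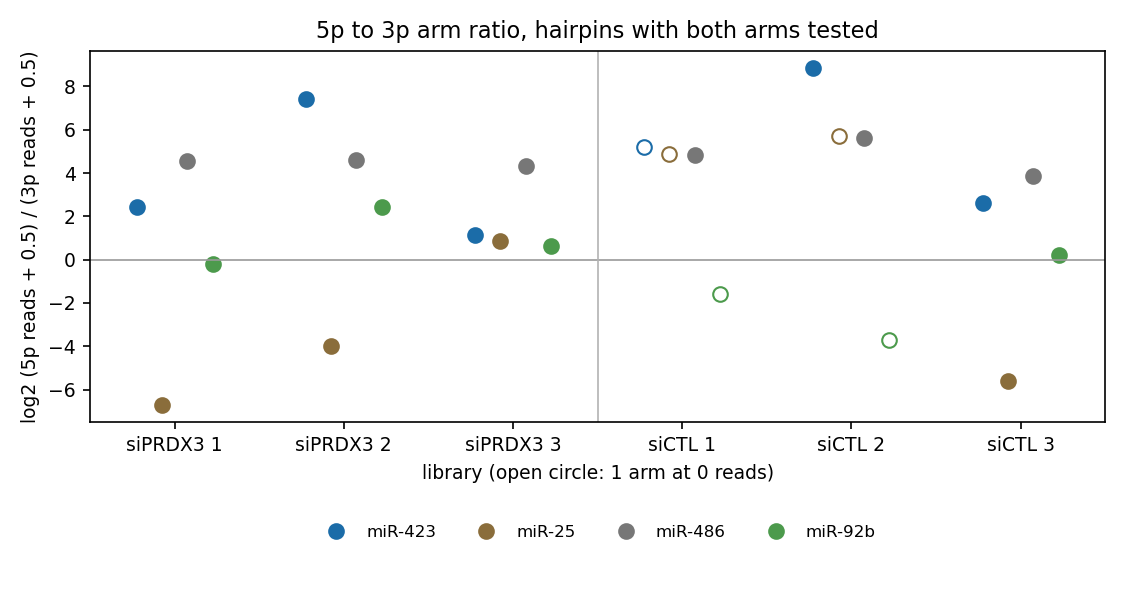
Log2 ratio of 5p to 3p reads, with 0.5 read added to each, in each library for the hairpins other than miR-3184 with both arms tested; siPRDX3 left, siCTL right, open circles where 1 arm had 0 reads. miR-423 lies at 2.44, 7.43 and 1.15 in siPRDX3 1, 2 and 3 and at 5.21, 8.87 and 2.59 in siCTL 1, 2 and 3, while miR-486 stays between 3.85 and 5.60.

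The fully complementary entries divided the reads of the 5p side almost evenly. Over the 6 libraries miR-3184-3p had 23221 reads and miR-423-5p 23126, so that miR-3184-3p took 50.1% of 46347 reads (95% Clopper-Pearson interval 49.6 to 50.6). By library its part was 50.4%, 49.8% and 51.6% in siPRDX3 1, 2 and 3, and 43.8%, 48.8% and 49.4% in siCTL 1, 2 and 3. The counting interval held 50% in 5 of the 6 libraries. The exception was siPRDX3 3, whose interval ran from 50.06% to 53.1%. Recovered reads carry a rounding error of at most 3.88 for these entries, from the 3 decimals of the deposited values.

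The log2 ratio of miR-3184-3p to miR-423-5p averaged 0.03 ± 0.05 in siPRDX3 and −0.15 ± 0.17 in siCTL (SD, n = 3 each). The point values of the groups did not overlap, with −0.01 to 0.09 in siPRDX3 and −0.35 to −0.04 in siCTL. Counting intervals of the closest libraries did. They were 48.4% to 51.1% of the pair's reads for miR-3184-3p in siPRDX3 2 and 48.5% to 50.2% in siCTL 3. The difference of 0.19 had an exact permutation p of 0.1, the smallest possible, and an adjusted p of 0.4 over the 4 ratios. It was 0.09 without siCTL 1, in which the ratio rests on 32 reads. The authors' setting for strand is not given in the sources used here, and reads from the plus and the minus strand cannot be told apart. Levels of miR-3184-3p are accordingly uncertain as levels of a separate RNA, and so are those of miR-423-5p.

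On the 3p side the division was uneven and differed between libraries. The entries there are offset, and the part of that offset in the division was not tested. miR-3184-5p took 45.1% of the reads of this pair in siPRDX3 1 (95% interval 43.5 to 46.7), 31.8% of 22 reads in siPRDX3 2 (13.9 to 54.9) and 34.8% in siPRDX3 3 (32.4 to 37.4). In siCTL 3 it took 32.8% (30.6 to 35.2), siCTL 2 had 1 read on this side and siCTL 1 had none. The intervals lay below 50% in siPRDX3 1, siPRDX3 3 and siCTL 3, and that of siPRDX3 1 lay above those of siPRDX3 3 and siCTL 3. Over all libraries miR-3184-5p had 2705 reads against 4071 of miR-423-3p, or 39.9% (38.8 to 41.1). The log2 ratio averaged −0.74 ± 0.41 in siPRDX3 and −0.87 ± 0.80 in siCTL (SD, n = 3 each, exact permutation p = 0.9). The values of siCTL 1 and siCTL 2 in that mean come from the added 0.5 read, so the groups could not be compared on this side beyond siCTL 3.

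**Figure D4:**
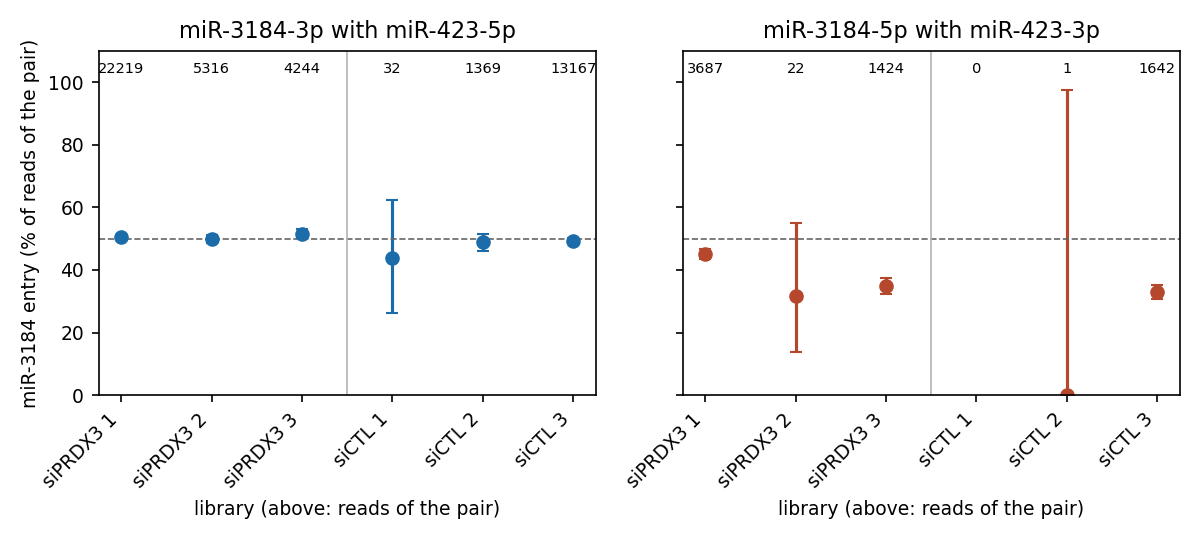
Part of the reads of each overlapping pair given to the miR-3184 entry (%), with 95% Clopper-Pearson intervals, siPRDX3 left and siCTL right; numbers above are the reads of the pair, and the dashed line marks 50%. On the 5p side all points lie between 43.8% and 51.6%, and on the 3p side the 3 libraries with most reads lie between 32.8% and 45.1%.

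Other loci with entries on opposite strands divided their reads in various ways. The RefSeq table gives 42 pairs of deposited entries that overlap on opposite strands, and 11 pairs had reads in both entries, 2 of them at miR-423. Of the 9 other pairs, 6 had an interval that held 50%, among them the 4 pairs with under 20 reads. The pair with most reads after miR-423-5p and miR-3184-3p was miR-122-5p, a miRNA typical of hepatocytes, with miR-3591-3p. They share 21 of 22 bases, and miR-3591-3p took 14.3% of 30243 reads (13.9 to 14.7). The pairs of miR-3158-5p with miR-3158-3p and of miR-550b-3p with miR-550a-5p had 1.61% and 1.11% in the lesser entry. All 359 reads of the miR-550 pair came from siCTL 2. In contrast, miR-203a-3p took 48.4% of 289 reads with miR-203b-5p (42.6 to 54.4), and miR-103b took 45.3% of 258 reads with miR-103a-3p (39.2 to 51.6), although nearly all of these reads came from 1 library each. miR-103b is the exact reverse complement of miR-103a-3p, as miR-3184-3p is of miR-423-5p, and the miR-203 entries share 21 of 22 bases. The pairs of miR-203 and miR-103 were named after their values were seen.

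**Figure D5:**
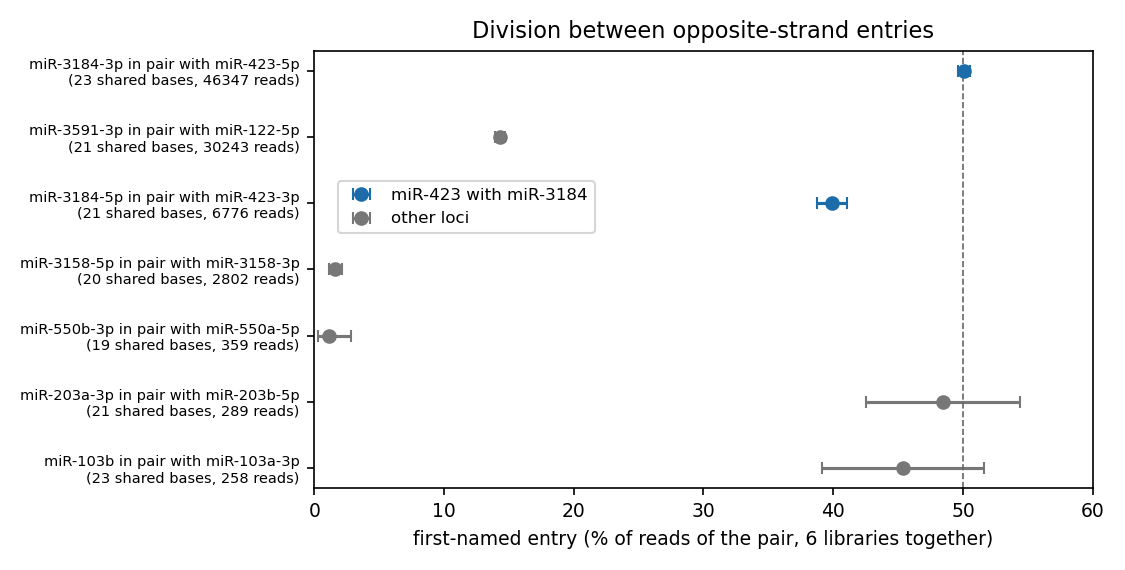
Part of the reads taken by the first-named entry of each pair on opposite strands (%), 6 libraries together, with 95% Clopper-Pearson intervals, for pairs with at least 20 reads; blue marks miR-423 with miR-3184, grey other loci, and the dashed line 50%. miR-3184-3p lies at 50.1% and miR-3184-5p at 39.9%, while miR-3591-3p lies at 14.3%. Intervals do not cover differences between libraries.

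Among the tested entries, miR-3184-3p was the most like miR-423-5p in its pattern over the 6 libraries, with a root-mean-square difference of the centred log2 shares of 0.14. That is not a separate result, since these entries are exact reverse complements whose reads cannot be told apart by strand. The other arm was less like it: miR-423-3p and miR-3184-5p ranked 44 and 58 in likeness, at 2.80 and 3.07, where the median over the tested entries was 2.78. The 5 nearest entries outside the locus were miR-589-5p (0.94), let-7f-5p (1.26), miR-183-5p (1.30), miR-92b-3p (1.37) and let-7i-5p (1.46). miR-589-5p had 59, 32 and 26 reads in siPRDX3 1, 2 and 3, and 0, 2 and 54 in siCTL 1, 2 and 3. let-7f-5p, a let-7 family member abundant in differentiated cells, had 9297, 3252 and 2545 reads in siPRDX3, and 181, 1193 and 4512 in siCTL. Each of the 5 had its lowest share in siCTL 1, as had miR-423-5p. Such likeness over 6 libraries of unequal depth and composition is a description.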

How the data were processed

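Mature miRNAs were sequenced from exosomal RNA of 6 HCT116 libraries, 3 per group by the titles. Per the submitters' processing notes Bowtie2 and bedtools 2.25.0 were used; the sources used here do not give their roles, the genome build, the strand setting or the scaling. The authors deposited log2 values, which were taken as log2(x + 1). In each library x moves in equal steps, each worth 1 read: of the values worth 100 reads or fewer, 100% were within 0.1 read of a whole number. The filter asked for the CPM equal to 10 reads at the median library size in 3 or more libraries, and for a total of 15 reads. limma 3.58.1 (R 4.3.3, mean-variance trend, two-sided, Benjamini-Hochberg, threshold 0.05) was fitted to the deposited log2 values of 80 entries. Ratios were tested by exact permutation (scipy 1.17.1). Read recovery and the limma fit were tried on simulated counts, fitted as library totals and with less spread between libraries than these data show. The fit to deposited values was not simulated. Sequences are RefSeq's, of which 2281 entry names matched. The named miRNAs are the 4 members, the 5 nearest entries, other opposite-strand pairs, entries with a shared seed and marker lists. Members and lists were chosen with earlier results of these data known.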

Additional observations from a re-analysis of the deposited data

How the results depend on the processing

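Under other scalings, filters, pseudocounts, summed opposite-strand entries and a replicate block, all 4 log2 fold changes stayed above 0 and short of the threshold; under the stricter filter miR-423-3p and miR-3184-5p were not tested. Leaving out 1 library gave −0.42 to 3.02 for miR-423-5p, −0.33 to 3.27 for miR-3184-3p, 1.89 to 8.44 for miR-423-3p and 3.84 to 9.88 for miR-3184-5p, with 0 to 20 entries past the threshold. Without siCTL 1 and siCTL 2 they were −1.38, −1.31, −2.47 and −2.19, and under library totals, chosen after the data were seen, −0.66, −0.59, −1.76 and −1.48. Under library totals without siCTL 1 alone they stayed above 0, at 0.65, 0.74, 2.93 and 4.56, unlike the negative ends of the ranges above. Without siCTL 1 and siCTL 2 the arm ratios differed by 1.08 (miR-423) and 0.86 (miR-3184), where all 6 libraries gave negative differences. Leaving out 1 library gave −3.76 to −0.23 for the miR-423 ratio, −3.83 to 0.23 for the miR-3184 ratio, 0.09 to 0.24 for the division of the 5p side and −0.23 to 0.56 for that of the 3p side, which was −0.051 with 1 read added. The cause of these changes was not tested. Same-numbered libraries had deviations from their group means that correlated at −0.24, 0.18 and 0.14, which cannot settle whether the numbers mark shared cultures. With replicate numbers as a block, the 4 entries had limma adjusted p-values of 0.466 to 0.677, and 0 entries passed. With that block the 4 ratios had exact permutation p-values of 0.25 to 0.75, 0.25 being the smallest possible. Ratios from deposited values could not be formed where an entry was at 0. At 32 reads, siCTL 1 cannot show a 3p side of under 9.38% of the locus.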
